A study of Mus musculus with 3 samples.

Results

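Among the 46 clusters of nuclei in 3 single-nucleus RNA libraries of mouse epididymal fat, 4 had the highest shares of RNA from the mitochondrial genome. These were number 1 in the Ctrl library, number 5 in Mid_Ob, and numbers 13 and 18 in Ob. They were chosen by the deposited mean counts of these clusters, so their high mitochondrial share is a description of the choice and not a finding. The same columns also gave each cluster its nuclei, and a cluster set against the rest of its library is therefore given without a test throughout. The 4 clusters held 1165230, 468501, 1198830 and 1835026 counted molecules (unique molecular identifiers, UMIs), which is 2.16% of the Ctrl library, 0.812% of Mid_Ob, and 1.07% and 1.64% of Ob. The libraries held 53980929, 57665213 and 111595518 UMIs in 14, 11 and 21 clusters.

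Each library was made once, from the pooled epididymal fat of 8 male C57BL/6J mice. The study describes the method as single-nucleus sequencing on the 10x Genomics platform. Ctrl mice, labelled as on a full diet, were taken at week 5. Mid_Ob mice ate a 60% high-fat diet, weighed over 10% more than the control mean and were taken at week 7. Ob mice ate the same high-fat diet, weighed over 20% more than the control mean and were taken at week 9. Whether the weeks count age or feeding is not stated, and stage, week and diet cannot be told apart from the library. With 1 library per stage no difference between stages could be tested. The tables hold no nuclei and no barcodes, so more nuclei in a cluster and more RNA per nucleus cannot be told apart, and barcodes shared between libraries could not be counted. The clusters are those of the deposited tables, and no source states whether these were made before or after the study's filters. The filters kept nuclei with less than 5% mitochondrial and red blood cell transcripts and removed doublets with DoubletFinder. Ob clusters 13 and 18 lay above 5% mitochondrial UMIs as a whole, so the Ob table was not limited to nuclei under that limit. Doublets and free RNA could not be assessed from sums over clusters.

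A nucleus mostly holds young transcripts, many of them long and unspliced, and noncoding RNAs such as Malat1 and Neat1 that stay in the nucleus. The 13 messenger RNAs of the mitochondrial genome are made and used inside mitochondria, and the messenger RNAs of ribosomal proteins are short, spliced quickly and translated in the cytoplasm. Hemoglobin messenger RNA is the main product of red blood cell precursors, and mature red blood cells of mammals have no nucleus. Cathepsins D and L, encoded by Ctsd and Ctsl, are proteases of the lysosome and are abundant in phagocytes.

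Promoters of some ribosomal protein, globin and lysosomal protease genes are shown first. All sequences are from RefSeq on GRCm38.p6, 5′ to 3′ on the transcript's strand, and the motifs shown were picked after 11 motifs had been counted. In 4 ribosomal protein genes the window runs from 30 bases before the start to 10 bases after it. The capitals mark CTTTCC, a pyrimidine run of the kind found at the starts of such genes. These genes were picked by their UMIs from among the entries that hold CTTTCC, so the motif is there by choice. They are not the ribosomal protein genes with the highest ratios.
Rps10, chr17:27635235-27635274, minus strand: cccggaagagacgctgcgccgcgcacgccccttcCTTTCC
Rpl35a, chr16:33056452-33056491, plus strand: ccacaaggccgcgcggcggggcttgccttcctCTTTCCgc
Rpl28, chr7:4792935-4792974, plus strand: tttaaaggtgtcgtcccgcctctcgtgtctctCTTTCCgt
Rpl38, chr11:114668550-114668589, plus strand: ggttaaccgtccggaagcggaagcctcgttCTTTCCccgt

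For an alpha and a beta globin gene the 100 bases before the start are shown, with CCAAT and TATAA in capitals.
Hba-a1, chr11:32283572-32283671, plus strand: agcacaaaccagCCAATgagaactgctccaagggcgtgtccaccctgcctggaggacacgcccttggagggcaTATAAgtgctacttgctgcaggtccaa
Hbb-bs, chr7:103827929-103828028, minus strand: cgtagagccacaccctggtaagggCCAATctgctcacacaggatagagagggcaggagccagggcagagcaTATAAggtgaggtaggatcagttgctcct

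For the 2 lysosomal proteases that lead the Ctrl cluster, a stretch of 35 bases upstream of the start is shown, with the palindrome CACGTG in capitals.
Ctsd, chr7:142388043-142388077, minus strand: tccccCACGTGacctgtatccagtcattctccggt
Ctsl, chr13:64370736-64370770, minus strand: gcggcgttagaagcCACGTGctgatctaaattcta

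On the transcript's strand, CTTTCC lay in the window of 10 of 70 entries for ribosomal protein genes (14.3%, from 59 of 80 symbols) and of 1.99% of all 32851 promoter entries. On either strand the shares were 15.7% and 3.54%. The palindrome CACGTG lay in the 300-base entries of 9 of 35 promoters of lysosomal genes (25.7%), against 7.15% of all entries. All 4 hemoglobin genes held CCAAT and TATAA in the 100 bases before the start, against 9.98% and 7.48% of all entries on the transcript's strand (18.9% and 10.2% on either strand). These are counts of letters and were not tied to the binding of any factor.

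The mitochondrial share of UMIs was 1.85% in Ctrl cluster 1 (95% interval 1.83 to 1.88), 2.98% in Mid_Ob cluster 5 (2.93 to 3.03), 6.18% in Ob cluster 13 (6.13 to 6.22) and 8.39% in Ob cluster 18 (8.35 to 8.43). Intervals here and below are exact binomial ones and cover counting error only. The next cluster of each library, just outside the choice, held 0.427% (Ctrl cluster 10), 1.31% (Mid_Ob cluster 11) and 1.35% (Ob cluster 16), and the medians of the other clusters were 0.209%, 0.397% and 0.351%. Taken as a whole, both Ob clusters lay above the study's limit of 5% per nucleus, so the Ob table holds nuclei over that limit, and the Ctrl and Mid_Ob clusters lay below it.

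Ribosomal protein messages moved with the mitochondrial ones. They took 1.33%, 2.37%, 7.93% and 11.1% of UMIs in the 4 clusters, in the order Ctrl 1, Mid_Ob 5, Ob 13 and Ob 18. The highest other cluster held 1.13% in Ctrl (cluster 12), 0.892% in Mid_Ob (cluster 9) and 2.16% in Ob (cluster 16). The described clusters thus had the highest ribosomal protein shares in all 3 libraries, by a narrow margin in Ctrl. The group was named and chosen from the same columns, so these shares too are a description and no support for its name. Nuclear-encoded subunits of the respiratory chain and ATP synthase did not follow in Ctrl, where cluster 12 had 0.719% and cluster 1 had 0.484%. In Mid_Ob and Ob these subunits took 0.522%, 1.36% and 1.93%, the highest shares of each library.

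**Figure D1:**
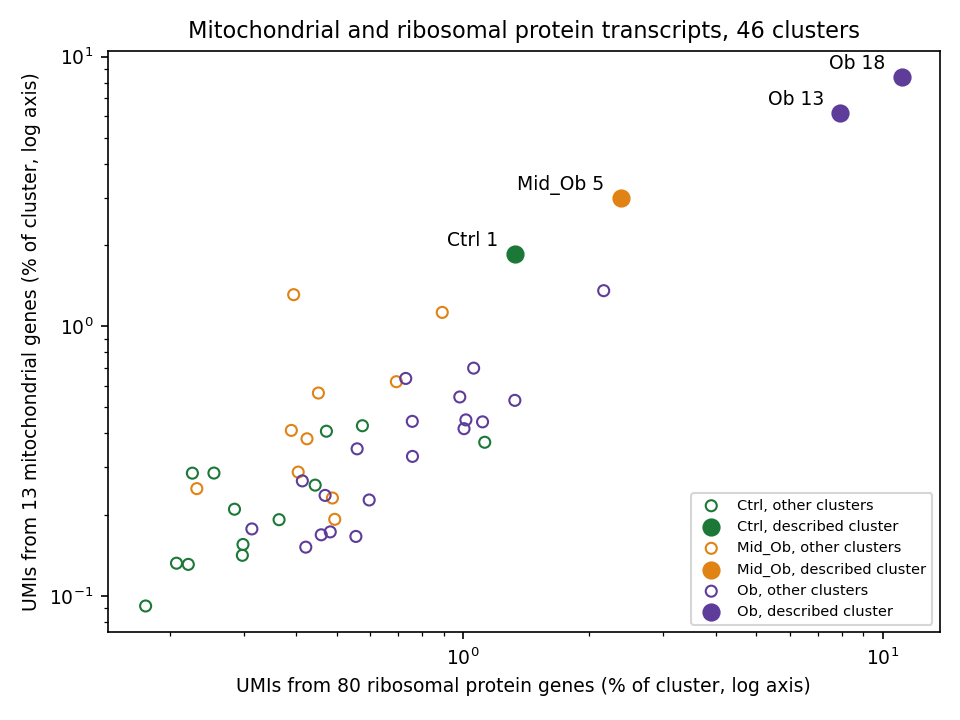
Each point is 1 of the 46 clusters, with its mitochondrial share of UMIs (percent, log axis) against its share of ribosomal protein messages (percent, log axis), and filled points are the 4 clusters described. The 2 Ob clusters stand apart at 6.18% and 8.39% mitochondrial UMIs, and the Ctrl and Mid_Ob clusters lie nearer to their libraries' other clusters at 1.85% and 2.98%.

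To compare genes, counts were scaled to 1000000 UMIs per cluster (CPM) and divided by the CPM of the same library without the 4 clusters. That reference kept the clusters assigned to testis and epididymis. In Ctrl the largest of these, clusters 6 and 13, held 15.4% and 15.1% of the library's UMIs. In Mid_Ob they were clusters 2 and 3, with 13.4% and 16.9%, and no Ob cluster was assigned so. A gene was compared where its library-wide share predicted at least 20 UMIs in the cluster, and it was called higher or lower beyond 1.5-fold. That share includes the cluster's own UMIs, and with the rest of the library alone predicting the UMIs, 47, 6, 91 and 78 genes of Ctrl 1, Mid_Ob 5, Ob 13 and Ob 18 would not have passed, of which 40, 5, 89 and 76 were higher. In Ctrl cluster 1, 1263 of 9607 genes were higher (13.1%) and 1341 were lower (14%). In Mid_Ob cluster 5, 436 of 5075 were higher (8.59%) and 1080 lower (21.3%). Ob cluster 13 had 1350 of 8350 genes higher (16.2%) and 3934 lower (47.1%), and Ob cluster 18 had 1768 of 9932 higher (17.8%) and 5972 lower (60.1%). These percentages are the background against which each gene list below is read.

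The balance of higher and lower genes depended on the scale. On the CPM scale the median gene ratio lay below 1, at a log2 of -0.09 in Ctrl 1, -0.22 in Mid_Ob 5, -0.54 in Ob 13 and -0.91 in Ob 18. Higher genes made up 48.5%, 28.8%, 25.5% and 22.8% of the genes called. With the median ratio set to 1 in each cluster, they made up 60.9%, 55.4%, 60.1% and 55.0%. The values below are on the CPM scale, and a list's median log2 ratio is read beside these 4 medians.

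All messages of the mitochondrial genome that could be compared were higher in each of the 4 clusters (11 of 11, 10 of 10, 11 of 11 and 11 of 11). Their median log2 ratios were 3.27, 3.27, 4.58 and 5.03. mt-Co1, subunit 1 of cytochrome c oxidase, had 4675 CPM in Ctrl cluster 1 and 455 in the rest (10.3-fold), and 6758 against 838 CPM in Mid_Ob cluster 5 (8.07-fold). In Ob it had 15810 CPM in cluster 13 and 20362 in cluster 18, against 742 in the rest (21.3-fold and 27.5-fold). mt-Atp6, a subunit of ATP synthase, was 11.5-fold, 10.9-fold, 24.2-fold and 35.0-fold higher. The makeup of the mitochondrial RNA differed little, and mt-Co1 took 25.2%, 22.7%, 25.6% and 24.3% of it in the 4 clusters, against 24.7%, 26.04% and 26.97% in the rest of Ctrl, Mid_Ob and Ob.

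All compared ribosomal protein genes were higher too, 73 of 73, 49 of 49, 79 of 79 and 80 of 80. The summed level was 13263 CPM in Ctrl cluster 1 against 2578 in the rest, 23746 against 3706 in Mid_Ob cluster 5, and 79344 and 111155 against 5223 in Ob clusters 13 and 18. Median log2 ratios were 2.37, 2.67, 3.95 and 4.42.
Rplp0, a protein of the ribosomal stalk, was 6.32-fold (95% interval 5.44 to 7.31), 7.30-fold (6.15 to 8.62), 20.96-fold (19.8 to 22.2) and 32.5-fold (31.1 to 33.8) higher. Rplp1, its partner in the stalk, had 724 against 74.3 CPM in Mid_Ob cluster 5 (9.74-fold). This was the highest ratio there among named genes outside the mitochondrial genome that passed the count limit. The 4 genes whose start sites are printed above behaved like the rest of the group: Rpl28 was 6.73-fold, 7.98-fold, 16.7-fold and 23.8-fold higher and Rpl38 6.94-fold, 7.93-fold, 12.6-fold and 19.7-fold. Rpl35a had ratios of 5.64, 6.35, 15.9 and 22.2. Rps10 reached 6.01, 17.03 and 22.2 in Ctrl 1, Ob 13 and Ob 18, and lay under the count limit in Mid_Ob.

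Other abundant cytoplasmic messages followed, with 17 of 17, 12 of 12, 18 of 18 and 18 of 18 compared genes higher and median log2 ratios of 1.93, 2.02, 3.06 and 3.50. Fth1 and Ftl1 encode the heavy and light chains of ferritin, the iron store of the cell. Fth1 had 259 against 33.0 CPM in Ctrl (7.86-fold), 523 against 65.4 in Mid_Ob (7.99-fold), and 5605 and 9070 against 284 in Ob (19.7-fold and 31.9-fold). Ftl1 was 7.84-fold, 7.65-fold, 15.5-fold and 24.4-fold higher. Tpt1, which encodes a translationally controlled tumor protein, was 6.94-fold and 7.02-fold higher in Ctrl and Mid_Ob and had 3028 and 4478 against 168 CPM in Ob, and Actb, cytoplasmic actin, 4.91-fold, 6.29-fold, 9.98-fold and 11.7-fold. In all 4 clusters the median of this list lay below that of the ribosomal protein list, which lay below that of the mitochondrial list.

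Nuclear-encoded subunits of oxidative phosphorylation were higher in 35 of 45 compared genes of Ctrl cluster 1 and none was lower. In Mid_Ob cluster 5, 7 of 14 were higher and 1 was lower. In Ob, 53 of 58 were higher in cluster 13 and 69 of 72 in cluster 18, where 1 was lower. Median log2 ratios were 1.44, 0.45, 2.87 and 3.50. Cox8a, Cox4i1 and Cox7c, subunits of cytochrome c oxidase encoded in the nucleus, were 3.62-fold, 4.65-fold and 3.48-fold higher in Ctrl cluster 1, and 17.7-fold, 12.8-fold and 9.99-fold higher in Ob cluster 18. The list thus lay below the mitochondrial genome list in all 4 clusters, by a log2 of more than 1.5.

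**Figure D2:**
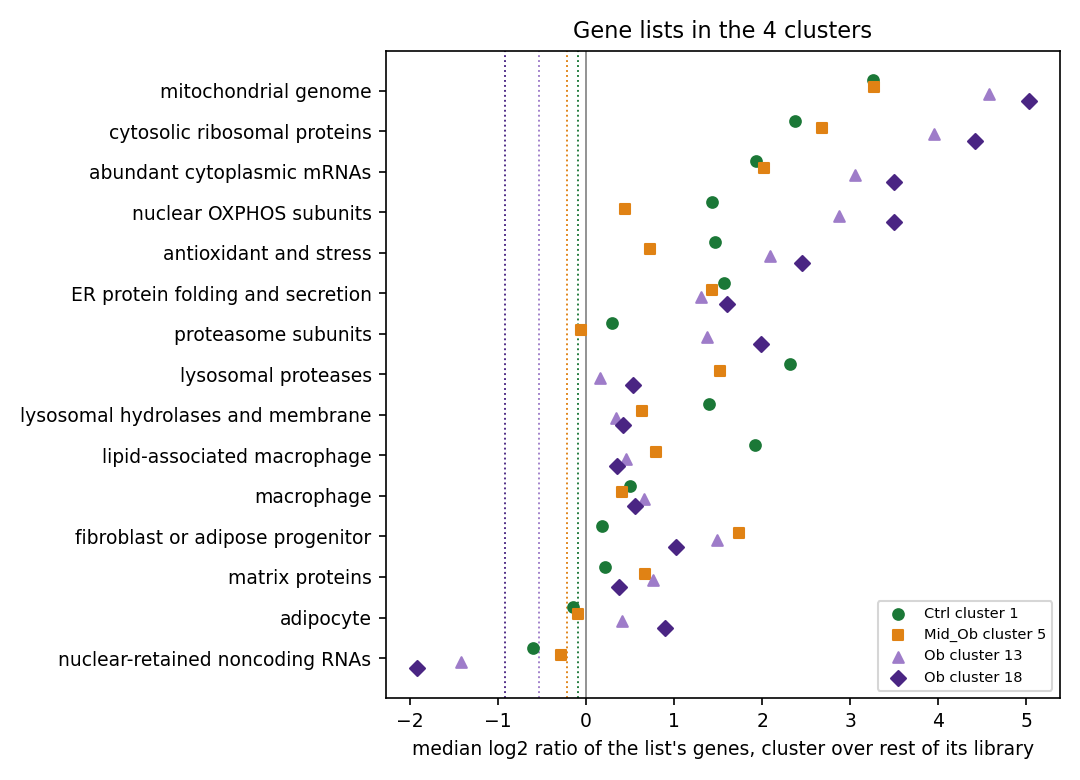
Points give the median log2 ratio (cluster CPM over CPM of the rest of the library) of the compared genes of each list on the axis in each of the 4 clusters, and the dotted lines give the median over all compared genes of that cluster. Mitochondrial and ribosomal protein lists lie between 2.37 and 5.03 (the hemoglobin list is not drawn), and the nuclear-retained noncoding RNAs lie on the negative side in all 4 clusters.

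Nuclear-retained noncoding RNAs went the other way on the CPM scale in Ctrl and Ob. In Ob all 11 compared RNAs were lower in both clusters, in Ctrl 6 of 11 were lower, and in Mid_Ob 2 of 10 were lower, no larger a share than among all its genes (21.3%), while Rian was higher (1.59-fold). Median log2 ratios were -0.60, -0.29, -1.42 and -1.92, each further below 0 than the median of all genes, and with the median gene ratio set to 1 the counts of lower RNAs were 3, 2, 9 and 10. Malat1, the RNA of nuclear speckles, had 11693 CPM in Ctrl cluster 1 against 22263 in the rest (1.90-fold lower) and 23486 against 42174 in Mid_Ob cluster 5 (1.80-fold lower). In Ob it had 29091 and 20386 against 54902 CPM (1.89-fold and 2.69-fold lower). Neat1, which builds paraspeckles, was 1.51-fold, 2.93-fold and 3.92-fold lower in Ctrl 1, Ob 13 and Ob 18, and its ratio in Mid_Ob was 0.862. Against a Ctrl reference without the largest cluster, its ratio in Ctrl cluster 1 was 1.10. By their summed share the clusters ranked 11 of 14 in Ctrl, 10 of 11 in Mid_Ob, and 20 and 21 of 21 in Ob. The 2 Ob clusters thus had the lowest shares of the library (3.12% and 2.19%), while in Ctrl cluster 12 was lower (0.826% against 1.54%) and in Mid_Ob cluster 10 was lower (2.80% against 2.83%).

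Gene length ordered the ratios in all 4 clusters. Genes spanning under 5 kb from first to last base of the annotated gene had median log2 ratios of 1.32, 1.77, 1.84 and 1.61, genes of 5 to 20 kb 0.29, 0.23, 0.06 and -0.06, genes of 20 to 100 kb -0.09, -0.17, -0.57 and -0.997, and genes over 100 kb -0.42, -0.46, -0.94 and -1.66. Each step to longer genes gave a lower median. Across compared genes the Spearman correlation of ratio with span was -0.54, -0.48, -0.50 and -0.56 (9591 genes in Ctrl 1), which describes genes of 1 library each, not independent replicates. The mitochondrial genes are not in these values, and without the ribosomal protein genes as well the short genes still had the highest median, for example 0.93 over 291 genes in Ctrl cluster 1 and 1.26 over 381 in Ob cluster 13.

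**Figure D3:**
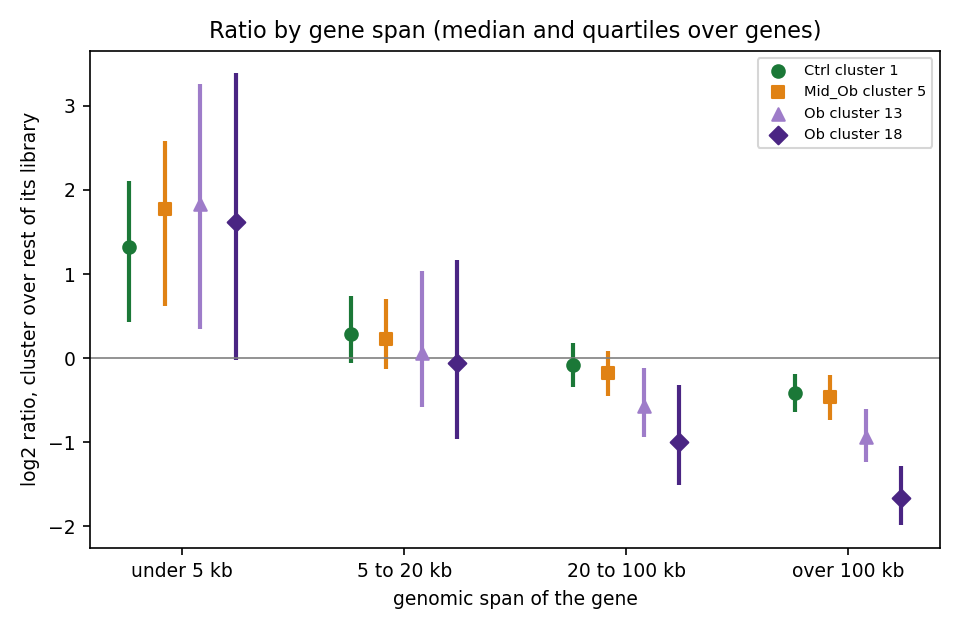
Median log2 ratio (points) and quartiles (bars) of nuclear genes in 4 bins of genomic span, for each cluster against the rest of its library. Medians step down from genes under 5 kb (1.32 to 1.84) to genes over 100 kb (-0.42 to -1.66), and the drop is steepest in Ob cluster 18.

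By UMIs, genes under 5 kb took 10.6% of Ctrl cluster 1 against 3.58% of the rest, 14.8% of Mid_Ob cluster 5 against 4.09%, and 26.2% and 34.8% of Ob clusters 13 and 18 against 3.83%. In Ctrl another cluster had more (14.2%), and in the other libraries the 4 clusters ranked first. Genes over 100 kb took 30.9%, 28.6%, 19.6% and 13.02%, against 41.2%, 40.05% and 38.8% in the rest of Ctrl, Mid_Ob and Ob. In Ctrl another cluster had less (22.4%), and in Mid_Ob and Ob the described clusters had the lowest shares. With mitochondrial and ribosomal protein genes left out, genes under 5 kb still took 7.87%, 10.5%, 15.6% and 21.4%, and genes over 100 kb 31.9%, 30.2%, 22.8% and 16.2%. Genes with a single exon, which have no introns to splice, took 3.04%, 3.84%, 2.30% and 2.42%, against 1.05%, 0.883% and 0.616% in the rest of Ctrl, Mid_Ob and Ob. In Ctrl another cluster had 3.08%.

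The summed ratio of lysosomal proteases was larger in Ctrl cluster 1 (8.12) than in Mid_Ob 5 (3.14), Ob 13 (2.06) and Ob 18 (2.46). The references differed, with 703 CPM in the rest of Ctrl, which includes testis and epididymis clusters, and 1651 in the rest of Ob. In CPM the distance was smaller, at 5707 in Ctrl 1 and 4065 in Ob 18. In Ctrl cluster 1, 9 of 11 compared genes were higher, and the summed level lay above the 2923 CPM of the next cluster. Ctsd had 1365 against 68.6 CPM, a ratio of 19.9 (95% interval 18.7 to 21.1), the highest among the named genes that could be compared in that cluster, and Ctsl had 1239 against 74.1 CPM (16.7-fold, 15.7 to 17.8). In Mid_Ob cluster 5 the ratios were 5.77 for Ctsd (248 against 42.9 CPM) and 5.40 for Ctsl (312 against 57.7 CPM). In Ob cluster 13 they were 5.27 and 4.09, and in Ob cluster 18 6.54 and 5.80. Both genes were thus higher in all 4 clusters, and the ratio in Ctrl was over 2 times that in either other library, a difference between single libraries that could not be tested. Both are among the markers that define the group, so their level here is a description.

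Further genes of this kind in Ctrl cluster 1 were Ctsk, the cathepsin best known from osteoclasts (207 against 17.7 CPM, 11.7-fold), Cd63, a membrane protein of late endosomes and lysosomes (12.2-fold), Ctsb (9.95-fold) and Psap, the precursor of the saposins that help break down sphingolipids (2508 against 316 CPM, 7.94-fold). The ratios of Ctsb were 3.97, 2.55 and 3.13 in Mid_Ob 5, Ob 13 and Ob 18, and those of Psap 3.54, 1.95 and 2.31. Counts of proteases higher were 5 of 6, 5 of 11 and 4 of 11 in these clusters, with median log2 ratios of 1.52, 0.15 and 0.53 against 2.31 in Ctrl 1. Of the hydrolases and membrane proteins of the lysosome, 16 of 22 compared genes were higher in Ctrl cluster 1 and 1 lower, 6 of 12 higher in Mid_Ob cluster 5, and 11 of 24 higher in each Ob cluster with 4 and 5 lower. In Ob, cluster 11, the highest in macrophage markers, had more protease RNA (4093 CPM) than clusters 13 (3393) and 18 (4065). By this sum cluster 13 ranked 8 of 21 and cluster 18 ranked 2. In Mid_Ob, cluster 4 had more (2183 CPM) than cluster 5 (1725). Genes of lipid-associated macrophages, many of them lysosomal, were higher in 10 of 12, 5 of 8, 7 of 14 and 6 of 14, and their part in the protease values was not tested.

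Hemoglobin messages made up 0.0488% of the UMIs of Ctrl cluster 1, 0.119% of Mid_Ob cluster 5, and 0.823% and 0.732% of Ob clusters 13 and 18. The summed level of the 4 genes was 488 against 36.4 CPM in Ctrl, 1193 against 22.5 in Mid_Ob, and 8234 and 7319 against 343 in Ob, 13.4-fold, 53.1-fold, 24.0-fold and 21.4-fold higher. Within Ob, cluster 16 held more than either (10016 CPM).
Hbb-bs, an adult beta globin, had 182 against 13.8 CPM in Ctrl cluster 1, where it passed the count limit only with the cluster's own UMIs, and 549 against 10.4 in Mid_Ob cluster 5, where it lay under the limit. In Ob it had 3893 and 3462 against 163 CPM (23.9-fold and 21.3-fold). Hba-a1, an adult alpha globin, had 2121 and 1871 against 85.6 CPM in Ob clusters 13 and 18 (24.8-fold, 23.7 to 25.9, and 21.9-fold, 21.01 to 22.7). Its ratio was the highest of cluster 13 among named genes outside the mitochondrial genome that passed the count limit. Hba-a1 lay under that limit in Ctrl (150 CPM) and Mid_Ob (243 CPM). Hba-a2 and Hbb-bt, their near copies, were 23.8-fold and 22.9-fold higher in Ob cluster 13 and 21.9-fold and 18.9-fold in cluster 18, and reads can be split between such copies.

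The 13 other erythroid genes of the list that the tables hold summed to 142 against 103 CPM in Ctrl cluster 1 (1.38-fold), 134 against 87.7 in Mid_Ob cluster 5 (1.53-fold), and 144 and 114 against 108 in Ob (1.34-fold and 1.06-fold). Alas2, the first enzyme of heme synthesis in red cell precursors, had 25.02 and 27.2 CPM in Ob clusters 13 and 18 against 16.7 in the rest (ratios of 1.495 and 1.63). Its counts in Ctrl and Mid_Ob lay under the limit, as did those of Bpgm, a red cell enzyme, in Mid_Ob and Ob. Of the members of this list that could be compared, 2 of 2 were higher in Ctrl cluster 1 (median log2 ratio 0.71) and 0 of 2 in Ob cluster 13. In Ob cluster 18, 1 of 2 was higher and 1 lower. In all 4 clusters the ratio of the summed hemoglobin genes was several times that of the other erythroid genes. Hba-a1 and Hbb-bs are among the markers that define the group, so this difference is a description and was not tested.

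Markers of the main cell types of fat were mixed within each list. Of the adipocyte markers, 5 of 15 were higher and none lower in Ctrl cluster 1, 5 of 13 higher and 2 lower in Mid_Ob cluster 5, 7 of 15 higher and 5 lower in Ob cluster 13, and 8 of 15 higher and 4 lower in Ob cluster 18. Fabp4, the fatty acid binding protein of fat cells, had 1191 against 475 CPM (2.51-fold), 2181 against 661 (3.30-fold), and 13394 and 20464 against 2367 (5.66-fold and 8.64-fold). Retn, which encodes the hormone resistin, had ratios of 1.44, 1.74, 6.46 and 11.2, and Lpl, lipoprotein lipase, 2.69, 1.86, 3.07 and 4.01. Cidec, a lipid droplet protein, had ratios of 0.746, 0.700, 1.33 and 1.86. Summed over the list, the Ob clusters had 22813 and 33361 CPM, more than the 18025 of the highest other cluster, while in Ctrl cluster 2 and in Mid_Ob cluster 1 were above (10310 against 5287 and 11987 against 7868 CPM).

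Macrophage markers were higher in 5 of 10, 1 of 3, 6 of 12 and 6 of 12 compared genes and lower in 1, 1, 3 and 5. C1qa and C1qb, chains of complement C1q, were 4.002-fold and 2.25-fold higher in Ctrl cluster 1, 4.02-fold and 2.97-fold in Ob cluster 13, and 4.58-fold and 3.28-fold in Ob cluster 18. Lyz2, lysozyme, was 5.17-fold, 5.74-fold and 6.14-fold higher in the same clusters. Mrc1, the mannose receptor, went the other way in Ob (1.80-fold and 2.71-fold lower), with ratios of 0.891 in Ctrl and 1.33 in Mid_Ob. The summed list was at 1143, 1146, 2087 and 1937 CPM, against 4311, 4113 and 7183 in the highest other cluster of Ctrl, Mid_Ob and Ob.

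Fibroblast and adipose progenitor markers were higher in 4 of 11, 6 of 7, 9 of 13 and 9 of 13 compared genes, with 3 lower in Ob cluster 18. Gsn, the actin-severing gelsolin, was 4.26-fold, 6.07-fold, 3.88-fold and 3.65-fold higher, and Dcn, decorin, 2.52-fold, 4.75-fold, 5.41-fold and 4.02-fold. In each of the 4 clusters some member of the adipocyte, macrophage and fibroblast lists was called higher, but of the 3 macrophage markers compared in all 3 libraries none was higher in all of them.

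**Figure D4:**
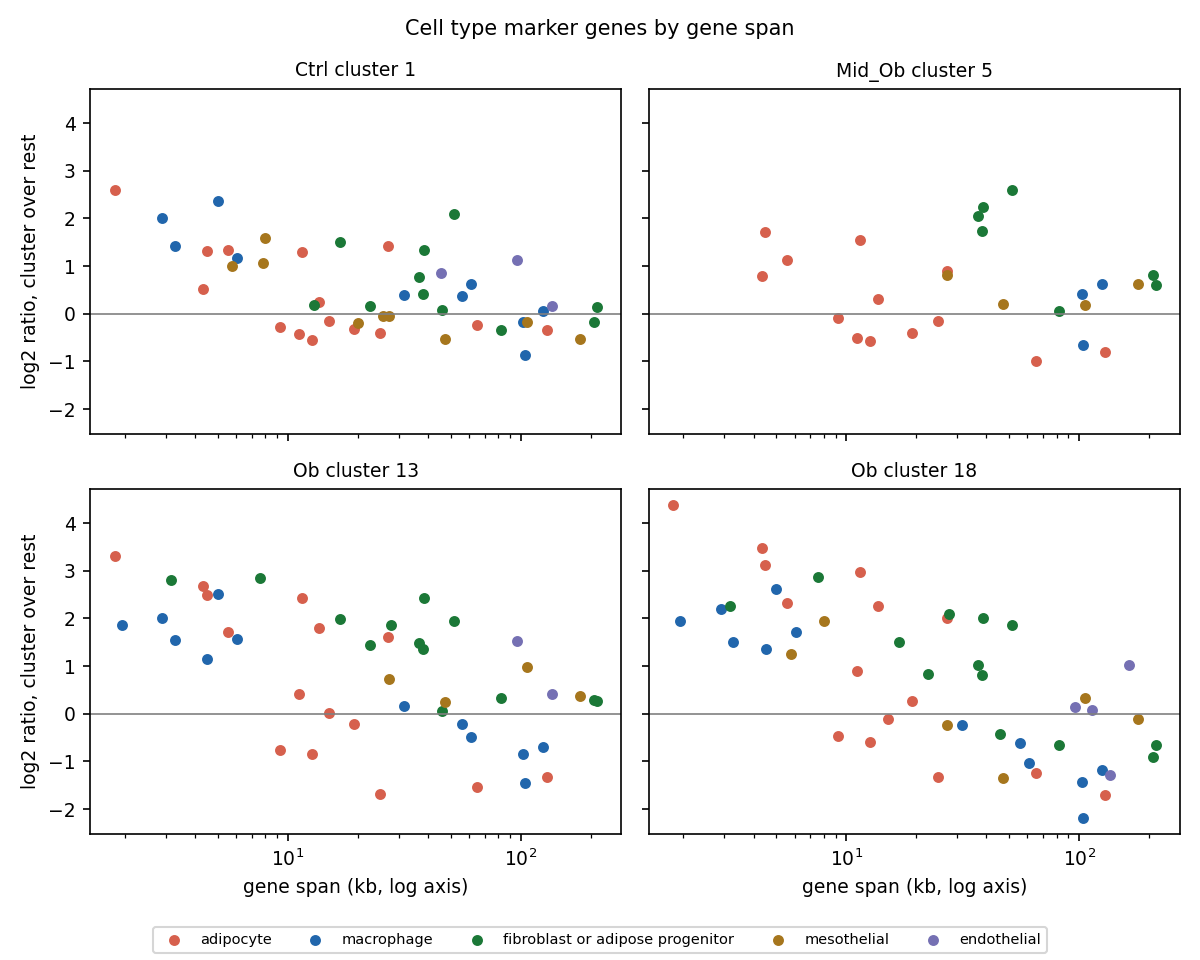
Each point is 1 marker gene of adipocytes, macrophages, fibroblasts, mesothelium or endothelium that could be compared, with its log2 ratio against its genomic span (kb, log axis), in 1 panel per cluster. Fabp4, a short gene, lies above 0 in all 4 panels, and Mrc1, a long one, lies below 0 in the Ctrl panel and both Ob panels.

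In most of the cell type lists with members called both ways, the members that were higher were shorter. The higher adipocyte markers had a median span of 5.55 kb in Ctrl 1, Mid_Ob 5 and Ob 13 and 8.34 kb in Ob 18, and the lower ones 97.2, 24.8 and 44.9 kb in Mid_Ob 5, Ob 13 and Ob 18. Higher macrophage markers had a median of 3.88 kb in both Ob clusters and lower ones 104 and 103 kb, but in Mid_Ob 5 the 1 higher marker was the longer (125 against 104 kb), as was the 1 higher endothelial marker in Ob 18 (164 against 136 kb). In fibroblast markers the medians of the higher members were 27.6 kb in both Ob clusters, against 207 kb for the 3 lower ones in cluster 18. The numbers of genes are small and the order was not tested.

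Taking genes over 100 kb alone, the levels in Ctrl and Mid_Ob were nearest to those of the pooled rest. The Spearman correlation of their CPM between the cluster and the pooled rest was 0.967 in Ctrl 1 (2118 genes) and 0.927 in Mid_Ob 5 (1566 genes), above that with any single cluster, of which the nearest were cluster 12 (0.858) and cluster 1 (0.850). In Ob, clusters 13 and 18 were nearest to each other (0.947 and 0.952) and next to the pooled rest (0.927 over 1693 genes and 0.935 over 1819). Over compared genes of any length, without mitochondrial and ribosomal protein genes, they were again nearest to each other (0.937 and 0.941), but cluster 16 (0.839 and 0.756) and cluster 14 (0.722 and 0.651) came before the pooled rest (0.713 and 0.635). These correlations are across genes of the same library, which share depth and the pool of mice, and a pooled profile averages over noise that single clusters keep.

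Transcripts of spermatids in Ctrl and of the epididymal epithelium in Mid_Ob, from organs that lie beside this fat, reached high levels. In Ctrl cluster 1, 7 of 11 compared spermatid genes were higher and none lower, with a sum of 4151 CPM against 1145 in the rest and 11852 in cluster 14. Oaz3, an antizyme of haploid germ cells, had 481 against 32.9 CPM (14.6-fold), Dbil5 272 against 20.3 (13.4-fold) and Smcp, a protein of the sperm mitochondrial capsule, 331 against 32.0 (10.3-fold). The protamine genes Prm1 and Prm2, which pack sperm DNA, were 5.56-fold and 6.41-fold higher, at 1278 and 811 CPM. Other testis lists moved less by their sums. Of 4 Sertoli genes 2 were higher and 1 lower (sum ratio 1.93), and of 10 spermatocyte genes 2 were higher (sum ratio 1.13). Of 3 Leydig genes none was higher and 2 were lower (sum ratio 0.823). In Ob cluster 13 Prm1 was at 2.50 CPM and Smcp had no UMI.
In Mid_Ob cluster 5, 8 of 13 compared genes of the epididymal epithelium were higher and 2 lower, with a sum of 10813 CPM against 6534 in the rest and 21355 in cluster 2. Lcn5 and Lcn8, lipocalins secreted into the epididymal duct, had 2307 against 812 CPM (2.84-fold) and 1769 against 801 (2.21-fold), and Defb20, a beta-defensin, 886 against 204 (4.33-fold). Adam7, a longer epididymal gene, had a ratio of 0.916. In Ctrl cluster 1 and in both Ob clusters no epididymal gene reached the count limit.

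Among the lowest ratios, in Ctrl cluster 1 St6galnac5, a sialyltransferase, was 4.74-fold lower (2.03 to 14.6), Kcnj15, a potassium channel, 4.35-fold and Gli2, a transcription factor of hedgehog signalling, 3.72-fold. In Mid_Ob cluster 5 Grik4, a glutamate receptor subunit, was 5.55-fold lower, Lipc, hepatic lipase, 4.01-fold (254 against 1018 CPM) and Erbb4, a receptor tyrosine kinase, 3.88-fold. In Ob cluster 13 Esrrg, an orphan nuclear receptor, was 11.9-fold lower (6.46 to 24.8) at 8.34 against 99.1 CPM. In Ob cluster 18 Cfap54, a gene of motile cilia, and Lrriq1 had no UMI and were at least 7.25-fold and at least 7.47-fold lower. Several of these genes were highest in a cluster elsewhere in the library: Esrrg, Cfap54 and Lrriq1 peaked in Ob cluster 17 and Lipc in Mid_Ob cluster 2. Without Mid_Ob clusters 2 and 3 in the reference, which were led by epididymal genes, the ratio of Lipc was 1.09.

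Genes higher in Ctrl cluster 1, in Mid_Ob cluster 5 and in Ob cluster 13 at once numbered 203 of the 4748 compared in all 3 (4.28%), and 366 were lower in all 3 (7.71%). With Ob cluster 18 in place of 13 the counts were 201 (4.19%) and 384 (8.01%) of 4794. The 203 included all 49 ribosomal protein genes, all 10 mitochondrial messages and all 12 abundant cytoplasmic messages compared, and 144 genes that were neither mitochondrial nor ribosomal. Outside the mitochondrial genome, Rpl39 (ratios 9.25, 8.06 and 17.4) and Fth1 (7.86, 7.99 and 19.7) had the highest smallest ratio. Of the respiratory chain subunits 6 of 14, of the lysosomal proteases 3 of 6 and of the adipocyte markers 4 of 13 were higher in all 3, and 2 of 10 nuclear noncoding RNAs were lower in all 3.

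The ratios also went together between libraries, whose reference nuclei are separate. Across genes, the Spearman correlation of log2 ratios was 0.55 for Ctrl 1 with Mid_Ob 5 (4869 genes), 0.63 and 0.65 for Ctrl 1 with Ob 13 and Ob 18, and 0.58 and 0.54 for Mid_Ob 5 with Ob 13 and Ob 18. Without mitochondrial and ribosomal protein genes the values were 0.54, 0.62, 0.64, 0.56 and 0.52. Of the genes higher in Ctrl 1 and compared in both, 71.0% were also higher in Mid_Ob 5, which was 57.6% of those higher there. Among all 4869 genes compared in both, 399 were higher in Mid_Ob 5. The shares were 71.4% and 60.3% for Ctrl 1 with Ob 13, and 66.1% and 58.9% for Mid_Ob 5 with Ob 13. With Ob 18 they were 68.3% and 58.8% for Ctrl 1, and 62.7% and 54.6% for Mid_Ob 5. Among all genes compared with Ctrl 1, 1050 of 7438 were higher in Ob 13 and 1154 of 8005 in Ob 18. Among those compared with Mid_Ob 5, 440 of 4778 were higher in Ob 13 and 456 of 4836 in Ob 18. In the order of the correlations, 324, 887, 994, 392 and 397 genes were higher in the first cluster. In the same order, 2, 43, 95, 33 and 68 of 4869, 7438, 8005, 4778 and 4836 genes were higher in the first cluster and lower in the second. In the opposite direction there were 9, 1, 3, 4 and 7. Of all genes compared with the rest of the library, 14%, 21.3%, 47.1% and 60.1% were lower in Ctrl 1, Mid_Ob 5, Ob 13 and Ob 18. Genes are not independent replicates, and they share length and base composition across libraries.

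The 2 Ob clusters were compared directly, since they share their reference. Of 8350 genes, 2676 were higher in cluster 13 than in 18 (32%) and 311 were lower (3.72%), with a median log2 ratio of 0.32. Higher genes made up 89.6% of those called, and 47.5% with the median ratio set to 1. Cluster 18 was the further from the rest in most lists: cluster 13 had 0.736 times its mitochondrial share, 0.714 times its ribosomal protein share, 0.702 times its respiratory chain share and 1.42 times its nuclear noncoding RNA share. Hemoglobin went the other way (8234 against 7319 CPM, 1.12 times). By length, the median log2 ratio of 13 over 18 rose from -0.35 in genes under 5 kb through 0.01 and 0.35 to 0.66 in genes over 100 kb, with a Spearman correlation of 0.45.

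Endothelial genes were among those higher in cluster 13. Ptprb, a phosphatase of blood vessel lining, had 96.8 CPM in cluster 13 and 13.6 in cluster 18 (7.10-fold, 4.58 to 11.4). Pecam1, an adhesion molecule of endothelium, had 78.4 and 29.97 CPM (2.62-fold, 1.86 to 3.72), and Flt1, a receptor for VEGF, 70.9 and 29.4. Ptprb and Flt1 lay under the count limit and were not among the genes called. Among the highest ratios by the rule for named genes were Mecom (74.2 and 9.81 CPM, 7.57-fold, 4.52 to 13.4) and Etl4 (134 and 17.98 CPM, 7.47-fold, 5.11 to 11.2), both with their highest level in cluster 21, which led the endothelial list. The endothelial list as a whole was 2.81 times as high in cluster 13 (502 against 179 CPM, and 123 in the rest), the mesothelial list 1.89 times, and the 6 compared resident macrophage markers were all higher in 13. Bank1, a B cell adaptor, was at 70.9 and 14.7 CPM. Adipocyte markers were at 0.684 times the level of cluster 18 with 4 of 15 lower: Fabp4 had 13394 and 20464 CPM and Retn 623 and 1081. Lipid-associated macrophage genes were at 0.815 times with 1 of 14 lower.
Csmd1, a long gene of a complement-control family, was the best counted of the 6 lowest (7.51 and 29.4 CPM, 3.92-fold lower in 13).

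Small as they were, the clusters held a large part of some RNAs of their libraries. They contained 18.2%, 7.06% and 43.3% of all mitochondrial UMIs of Ctrl, Mid_Ob and Ob, 10.2%, 4.99% and 34.5% of the ribosomal protein UMIs, and 22.9%, 30.3% and 38.5% of the hemoglobin UMIs, from 2.16%, 0.812% and 2.72% of all UMIs. The mitochondrial share of the whole library was 0.220%, 0.343% and 0.472% in Ctrl, Mid_Ob and Ob, and 0.184%, 0.322% and 0.275% without the 4 clusters. With them Ob had the highest share of the 3 libraries, and without them Mid_Ob did. A fall in each library was fixed in advance, since the clusters left out were chosen as the highest in mitochondrial share. Of these, 2 came from Ob and 1 from each other library, so the change of order depends on that choice. The ribosomal protein share was 0.281%, 0.387% and 0.776% with them and 0.258%, 0.371% and 0.522% without, so that its order stayed Ctrl, Mid_Ob, Ob, and the hemoglobin share was 0.0046%, 0.0032% and 0.0542% with them and 0.0036%, 0.0022% and 0.0343% without. With 1 library per stage none of these orders was tested.

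**Figure D5:**
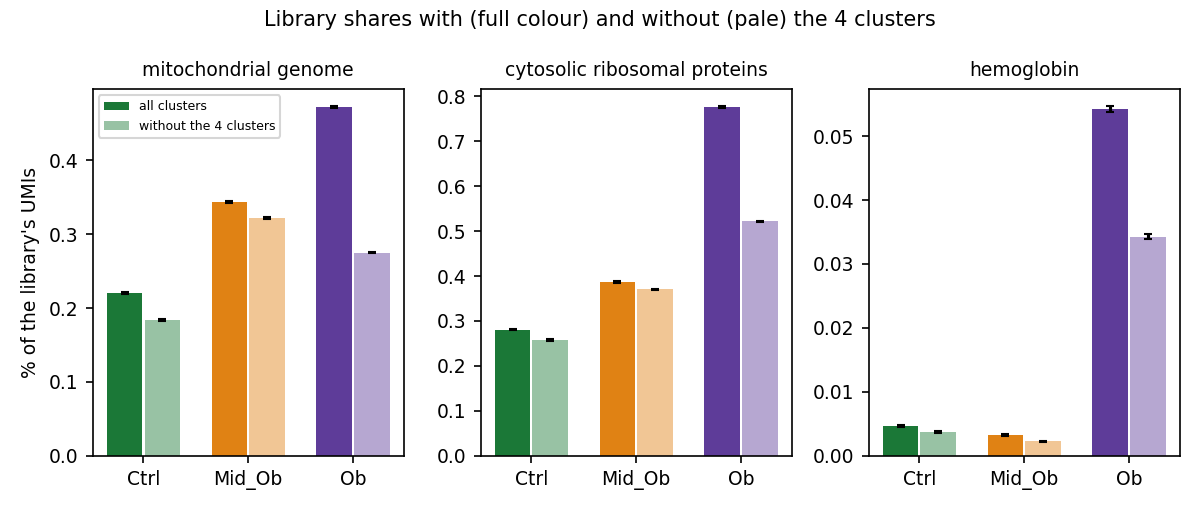
Bars give the share of UMIs (percent, from 0) of mitochondrial, ribosomal protein and hemoglobin messages in each library, with all clusters and without the 4 clusters described. The mitochondrial bar of Ob drops from 0.472% to 0.275%, below that of Mid_Ob at 0.322%. A drop was fixed in advance, since the clusters were chosen for their high mitochondrial share.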

How the data were processed

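Pooled epididymal fat was measured by single-nucleus RNA sequencing in 3 libraries, 1 each for Ctrl, Mid_Ob and Ob. The authors aligned and counted reads with Cell Ranger and the STAR inside it, and deposited a table per library with 3 columns per cluster. The version of Cell Ranger, the build and the gene annotation they used are not given in the sources used for this report. The signal column is the deposited mean count, a gene's UMIs summed over a cluster's nuclei and divided by their summed size factor. The deposited log2 fold change and adjusted p-value columns hold the authors' own contrasts of clusters and were not used.

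The smallest step of each column gave the value of 1 UMI and so the counts, and 100% of 1248253 values were whole within 0.001 counts. Libraries held 53980929 to 111595518 UMIs. With 1 library per group, and with clusters made from the same values, no test was possible and none was run, and no count model was fitted. Ratios of CPM against the rest of the library are given with 95% exact binomial intervals, which cover counting error only. Genes with at least 20 UMIs predicted by the library-wide share were compared, and called beyond 1.5-fold. A gene at 0 was bounded with 3 counts. The 34 gene lists (579 entries) and the clusters were chosen with earlier results of these data known. Named genes were the 4 markers of the group, per cluster the 10 highest and 6 lowest ratios with a proper symbol, 6 and 6 for Ob cluster 13 over 18, the 10 with the highest smallest ratio over the 3 libraries, and the 4 members of each list with most UMIs. Rpl35a and Rps10, shown for their sequence, and Rian, Gm42418 and AY036118 were named after their values were seen. Symbols, spans and exons came from GENCODE M21 on GRCm38 (99.9% of 29625 identifiers matched), and promoters from RefSeq on GRCm38.p6. The authors' filter at 5% mitochondrial or red blood cell transcripts and their doublet removal were not repeated here. Whether the tables precede them is not stated, but the Ob table holds nuclei over the mitochondrial limit. The scripts were tested on simulated data, and matplotlib 3.10.9, pandas 2.3.3, scipy 1.17.1 and numpy 2.4.6 were used under Python 3.11.15. Alternatives changed the count limit, the fold limit, the scaling, the call and the reference clusters.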

Additional observations from a re-analysis of the deposited data

Results flagged for a closer look

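Rian, an imprinted noncoding RNA of the nucleus, was the single member of its list on the other side of 1 in 1 library. Its ratio was 1.59 in Mid_Ob cluster 5 (70.4 against 44.4 CPM, 1.09 to 2.23), where it was higher than in the rest, and 0.633 in Ctrl cluster 1, 0.385 in Ob cluster 13 and 0.278 in Ob cluster 18, where it was lower. The difference between libraries was not tested, since each stage had 1 library. Against the median CPM of the other clusters the Ob ratios also exceeded 1.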

How the results depend on the processing

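No paired analysis was possible because each stage had 1 library. Leaving out a replicate was not run for the same reason, and the counts below are descriptions with no test. A limit of 5 predicted UMIs tests more genes and one of 100 fewer, by construction. Higher and lower genes then numbered 3105 and 2357, or 91 and 578, in Ctrl cluster 1, and 2054 and 2106, or 29 and 325, in Mid_Ob cluster 5. In Ob cluster 13 there were 2641 higher at a limit of 5, and 251 higher and 1809 lower at 100. In Ob cluster 18 there were 2698 higher, or 439 higher and 2994 lower, and for cluster 13 over 18 there were 4355 and 957, or 1155 and 40. Higher and lower in all 3 libraries were 857 and 611, or 16 and 146, with Ob cluster 13, and 825 and 673, or 16 and 150, with Ob cluster 18. A 2-fold limit gave 641 and 234 in Ctrl 1, 219 and 290 in Mid_Ob 5, 1998 lower in Ob 13, 903 and 31 for 13 over 18, 134 and 26 in all 3 with Ob 13, and 27 lower in all 3 with Ob 18. Asking the whole interval to lie past 1.5-fold gave 697 and 234 in Ctrl 1, 229 and 244 in Mid_Ob 5, 1919 lower in Ob 13, and 536 and 17 for 13 over 18.

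With the median ratio set to 1, higher and lower genes were 682 and 548 in Mid_Ob 5, 2240 and 1488 in Ob 13, 3354 and 2749 in Ob 18, and 1214 and 1341 for 13 over 18, and 132 and 139 genes were lower in all 3 with Ob 13 and 18. Against the median CPM of the other clusters they were 3483 and 463 in Ctrl 1 and 1179 and 562 in Mid_Ob 5, and 417 and 87, or 400 and 97, in all 3 with Ob 13 or 18. Leaving the largest cluster out of the reference gave 706 higher in Mid_Ob 5, and leaving out the testis and epididymis clusters 2864 higher in Ctrl 1. The cause of these differences was not tested.

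Lists of at least 5 compared genes with a median over 1.5-fold higher numbered 11, 10, 13 and 11 in Ctrl 1, Mid_Ob 5, Ob 13 and Ob 18. They numbered 18 in Ctrl 1 and 18 in Mid_Ob 5 at a limit of 5, 4, 1 and 8 in the first 3 clusters at 100, 18 in Ctrl 1 against the median of the other clusters, and 19 in Ob 18 with the median ratio set to 1. Mitochondrial UMIs over nuclear protein-coding UMIs were 2.07%, 3.399%, 7.09% and 9.75%, and without mt-Co1 the mitochondrial share was 1.38%, 2.31%, 4.59% and 6.35%. The library shares without the 4 clusters (0.184%, 0.322% and 0.275%) and a count limit predicted from the rest alone were added after seeing the data. The latter gave 1223, 431, 1261 and 1692 genes higher in Ctrl 1, Mid_Ob 5, Ob 13 and Ob 18. Without mitochondrial and ribosomal protein genes, genes under 5 kb took 7.87%, 10.5%, 15.6% and 21.4% and genes over 100 kb 31.9%, 30.2%, 22.8% and 16.2% of UMIs.

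Ratios that turned above 1 against the median CPM of the other clusters were, in Ctrl cluster 1, Cfap54 3.02, Erbb4 2.45, Esrrg 1.62, Grik4 1.40 and Neat1 1.08. In Mid_Ob cluster 5 they were Cfap54 1.62 and Lipc 2.50, in Ob cluster 13 Gli2 1.25, Rian 1.63 and St6galnac5 1.74, and in Ob cluster 18 Csmd1 2.74, Erbb4 1.02, Gli2 1.45 and Rian 1.18. Without the testis and epididymis clusters Cfap54 was at 3.79, Erbb4 at 2.52 and Grik4 at 1.79 in Ctrl 1 and Lipc at 1.09 in Mid_Ob 5, and without the largest cluster Neat1 was at 1.10 in Ctrl 1. Of 1072 ratios of named genes recomputed, 19 reversed.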

Other observations

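Genes of protein folding in the endoplasmic reticulum were higher in 10 of 11, 7 of 8, 10 of 13 and 13 of 15 compared members in Ctrl cluster 1, Mid_Ob cluster 5, Ob cluster 13 and Ob cluster 18, and none was lower. Hspa5, the chaperone BiP, was 4.82-fold, 4.01-fold, 3.11-fold and 3.03-fold higher, and Calr, calreticulin, 5.36-fold, 5.32-fold, 4.13-fold and 4.54-fold. Unlike the ribosomal protein list, this list had nearly the same median log2 ratio on the CPM scale in all 4 clusters (1.57, 1.43, 1.31 and 1.60). The median of all compared genes was -0.09, -0.22, -0.54 and -0.91, so the list lay furthest above it in Ob cluster 18. Antioxidant genes were higher in 8 of 10, 2 of 4, 13 of 13 and 13 of 13, and Gpx4, which reduces lipid peroxides, was 4.50-fold, 14.4-fold and 23.0-fold higher in Ctrl 1, Ob 13 and Ob 18. Proteasome subunits were higher in 5 of 11, 0 of 5, 8 of 12 and 13 of 16.

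Among immune genes, those of MHC class II were higher in 4 of 6, 3 of 3, 6 of 7 and 6 of 7 compared members, with 1 lower in Ob cluster 18. Cd74, the invariant chain that guides these molecules, had 139 against 45.3 CPM in Ctrl cluster 1 (3.07-fold), 408 against 66.9 in Mid_Ob cluster 5 (6.10-fold), and 927 and 1045 against 174 in Ob (5.33-fold and 6.01-fold). Of the cytokines and chemokines, 5 of 5 were higher in Ob cluster 13 and 10 of 12 in Ob cluster 18. Ccl2, which draws monocytes, was 6.01-fold and 9.57-fold higher there (194 and 310 against 32.4 CPM).

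Gm42418 and AY036118, annotated genes that overlap ribosomal RNA repeats, were at 19001 and 1783 CPM in Ctrl cluster 1, 29885 and 2256 in Mid_Ob cluster 5, 14993 and 1856 in Ob cluster 13 and 16104 and 2066 in Ob cluster 18. The other clusters held 2596 to 15270 CPM of Gm42418 in Ctrl, 2912 to 12827 in Mid_Ob and 979 to 6490 in Ob, so the 4 clusters had the highest level of each library.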
